A study of Homo sapiens with 27 samples.

Results

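EPHA4 and 9 further genes of the Eph receptor and ephrin family were followed in 27 mRNA libraries. The 10 genes are 6 Eph receptors (EPHA4, EPHA2, EPHA3, EPHA5, EPHB2 and EPHB4) and 4 ephrins (EFNA1, EFNA5, EFNB1 and EFNB2), taken by gene symbol from a table of 61533 genes. EPHA4 was selected on its counts in these libraries, which were higher with a focal adhesion kinase (FAK) inhibitor than with vehicle on every day sampled, so its difference between those arms is described here without a test. The cells were the uveal melanoma line 92.1, an established line that carries an activating mutation of GNAQ, a gene that together with GNA11 accounts for most uveal melanomas. They were kept in RPMI with 10% serum and given either 100 nM of VS-4718 (FAKi) or the solvent DMSO, with medium and agent renewed every 72 h. RNA was taken from DMSO cells at day 0 and from DMSO and FAKi cells at days 3, 7, 14 and 21, with 3 libraries in each of the 9 groups. All libraries come from this single line, so every group shares its genotype.

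Eph receptors are the largest family of receptor tyrosine kinases, and their ligands, the ephrins, are themselves tethered to the surface of neighbouring cells. A-type ephrins are held by a lipid anchor and bind mainly EphA receptors, whereas B-type ephrins cross the membrane and bind mainly EphB receptors. EphA4 is unusual in binding ligands of both classes. Contact between cells sends a forward signal through the receptor and a reverse signal through the ephrin, and the result is often repulsion, a change of adhesion or a change of cell shape. In the melanocyte lineage, which arises from the neural crest, the family guides migrating precursors.

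Library totals ran from 12161994 to 43651551 counts, and all 7 melanocyte genes examined (MITF, SOX10, PMEL, MLANA, TYR, TYRP1 and DCT) had a mean of at least 1 CPM (counts per 1000000). Their summed level was 11180 to 11660 CPM in DMSO and 12250 to 14590 CPM in FAKi at day 7, 9438 to 10080 against 12250 to 12800 at day 14, and 11730 to 13970 against 14890 to 14950 at day 21, and the arms overlapped at day 3. The 4 immune markers summed to 0 CPM in every group, and no endothelial or epithelial marker reached a mean of 1 CPM, but COL1A1 and LUM of the 5 fibroblast markers did (5.73 and 5.09 CPM over all libraries). The fibroblast markers summed to 9.46 to 12.9 CPM in DMSO and 13.1 to 14.6 in FAKi at day 14, and to 7.44 to 10.96 against 5.71 to 7.43 at day 21, while the arms overlapped at days 3 and 7. The mitochondrial share of counts in DMSO was 16.98 to 18.8% at day 0, 8.61 to 18.1% at day 3, 17.05 to 19.3% at day 7, 21.95 to 26.97% at day 14 and 5.49 to 9.75% at day 21. In FAKi it was 16.8 to 18.7%, 20.2 to 20.7%, 20.7 to 22.1% and 10.7 to 11.2% on the 4 days. The libraries that stood apart from their groups were 3, DMSO day 3 replicate 1 and DMSO day 21 replicate 3, each with the highest mitochondrial share of its group, and FAKi day 7 replicate 1, which lay nearer to FAKi day 14 replicate 1 (root mean square difference of log2 CPM 0.215) than the replicates of any group lay to each other (0.228 at the closest). The name of the count column for DMSO day 21 replicate 3 writes its day with an extra digit, and its day was taken from its title. Calls that turn on any of the 3 are given with and without it. DMSO day 3 replicate 1, at 18.1%, lay within the mitochondrial share of FAKi at day 3, while replicates 2 and 3 held 9.59 and 8.61%. DMSO day 21 replicate 3, at 9.75%, lay nearer to FAKi than replicates 1 and 2, both at 5.49%. A fit without either thus keeps the DMSO libraries furthest from FAKi in that share, and which fit is nearer the truth was not tested. The part that the mitochondrial share or the melanocyte and fibroblast levels play in the results was not tested.

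At day 0 the family was dominated by a few transcripts. Per kilobase of counted transcript, EPHB4 and EPHA2 were the highest receptors, at 11.1 ± 0.958 and 10.0 ± 0.118 CPM per kilobase (mean ± SD, n = 3). EPHA4 stood at 0.37 ± 0.0684, below EPHB2 (1.08 ± 0.228) and EPHA5 (0.863 ± 0.0336). EPHA1, a receptor not among the 10 genes, lay at 2.3 ± 0.297, on a counted transcript of only 648 bases. Among the listed ligands, EFNB1 and EFNA1 lay at 2.27 ± 0.0452 and 2.15 ± 0.150 CPM per kilobase, and EFNB2 and EFNA5 at 0.759 ± 0.111 and 0.713 ± 0.124. The ephrin with the highest level of the whole family, EFNA3 at 24.02 ± 1.16, is not among the 10 genes, and 46.95% of its counted bases are shared with an EFNA4-EFNA3 read-through transcript. EPHA3 was close to absent, with 41 counts over all 27 libraries and 0 in 12 of them. A count of 0 allows up to 3 counts, equal to 0.086 to 0.245 CPM in those libraries. EPHA3 fell under the minimum of 20 counts within the libraries of every comparison and was not tested there, so 9 of the 10 genes were. It entered the alternative fit of all 27 libraries at once, which did not call it in any comparison.

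**Figure D1:**
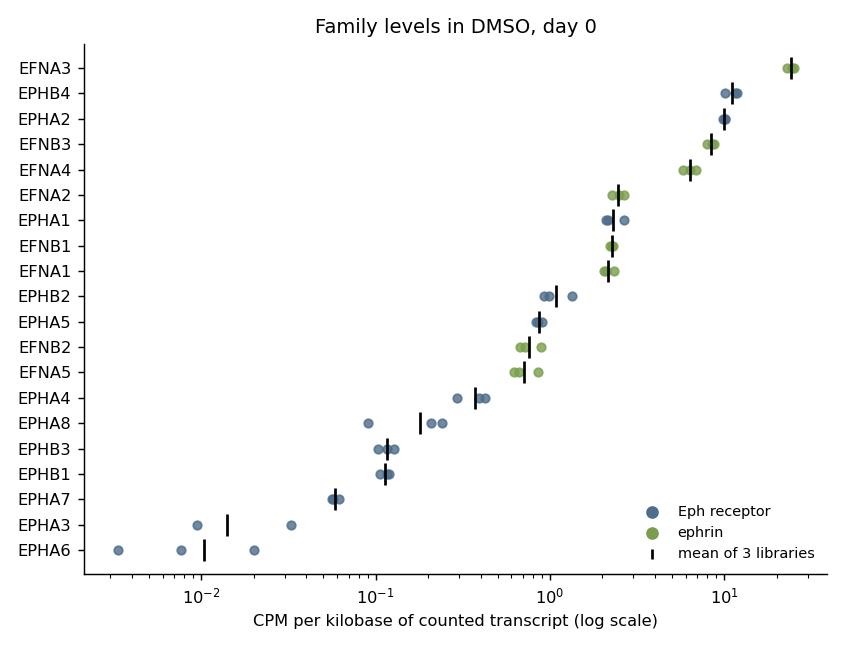
CPM per kilobase of counted transcript (log axis) in the 3 DMSO day 0 libraries for the Eph receptors (blue) and ephrins (green) that had counts, with each mean as a black bar. Libraries at 0 cannot be drawn on this axis. EPHB4 and EPHA2 lead the receptors, and EPHA4 lies at 0.37.

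With all libraries in, few of the genes other than EPHA4 crossed the threshold under FAKi. A gene is said here to have risen or fallen where edgeR's quasi-likelihood test gave a Benjamini-Hochberg adjusted p of at most 0.05 over all genes tested, and to have passed the fold criterion too where its log2 fold change was beyond 1 in either direction. At day 3, 0 of the 8 tested genes passed the adjusted p, where 0% of all tested genes did. At an unadjusted p under 0.05 there were 4 of the 8, beside 5442 of 22846 genes. DESeq2 called EPHA2 and EPHA5 on that day, 2 of 8 where it called 1838 of 22846 genes in all. At day 7 it was again 0 of 8 by edgeR and by DESeq2, against 0.0269% of all genes by edgeR. At an unadjusted p under 0.05 there was 1 of the 8, beside 1955 of 22299 genes. At day 14 EPHA2 fell, 1 of 8 against 12.4% of all genes, and at day 21 EPHA2 and EPHB2 fell, 2 of 8 against 11.6%. None of the 8 passed the fold criterion as well, against 1.66% of all genes at day 14 and 5.28% at day 21. The libraries of the arms did not overlap for 6 of the 8 at day 3 (2 with FAKi higher, 4 lower), beside 30.9% of all genes (15.1% higher, 15.8% lower). At day 7 this held for 2 (1 higher, 1 lower) beside 16.7% (8.25 and 8.46%), at day 14 for 4 (2 and 2) beside 28.9% (15.1 and 13.8%), and at day 21 for 4 (1 and 3) beside 35.4% (16.5 and 18.9%). The median log2 fold change of the 8 was -0.32, -0.01, 0.09 and -0.22 on the 4 days, beside -0.02, 0.01, -0.01 and 0.01 over all genes. More was called without the libraries that stood apart in DMSO. With DMSO day 3 replicate 1 left out, EPHA2 fell and EPHA5, EFNA5 and EFNB2 rose at day 3, beside 7109 of 21745 genes called. With DMSO day 21 replicate 3 left out, EPHA2, EPHB2 and EFNA5 fell and EPHA5 rose at day 21, beside 11052 of 22774. None of the 8 passed at day 7 with FAKi day 7 replicate 1 left out, beside 645 of 21797.

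EPHA4 is encoded on the minus strand of chromosome 2, and the transcript counted for it spans chr2:221418027-221572304 (hg38), with no exon shared with another gene of GENCODE 44. EPHA4 and EPHA2 moved in opposite directions under FAKi, so the 250 bases before the start of the counted transcript of each are shown, from RefSeq on GRCh38.p14, 5′ to 3′. The sequences lie at chr2:221572305-221572554 and chr1:16156070-16156319, both on the minus strand. Capitals mark any match to GGAATG (the TEAD core), TGANTCA (AP-1), CACGTG (the MITF E-box) or TGACGTCA (CRE) on either strand.
EPHA4: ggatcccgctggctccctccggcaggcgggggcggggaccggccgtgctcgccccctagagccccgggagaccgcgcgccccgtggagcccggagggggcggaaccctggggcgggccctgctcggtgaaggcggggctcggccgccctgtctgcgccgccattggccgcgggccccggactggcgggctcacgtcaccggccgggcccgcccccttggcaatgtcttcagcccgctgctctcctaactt
EPHA2: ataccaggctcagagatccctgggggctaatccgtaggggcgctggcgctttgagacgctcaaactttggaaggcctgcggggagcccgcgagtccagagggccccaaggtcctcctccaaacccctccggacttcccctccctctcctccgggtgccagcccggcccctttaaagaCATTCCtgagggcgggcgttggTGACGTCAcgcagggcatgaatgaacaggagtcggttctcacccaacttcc
The EPHA4 stretch held no match and was 78% G or C, where the median over all promoters in the RefSeq table was 58.0%. The EPHA2 stretch, at 63.2%, held the TEAD core in reverse 73 bases and the CRE 51 bases before the start. Stretches of the same length held the TEAD core in 11.9%, AP-1 in 6.57%, the E-box in 6.34% and the CRE in 1.65% of 35116 RefSeq entries, and of the 10 genes EPHA2 alone held any of the 4. A match is a string of letters and says nothing of binding in these cells.

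EPHA4 levels differed between arms on each day. At day 3 the DMSO libraries held 2.14, 1.97 and 1.13 CPM and the FAKi libraries 3.75, 5.55 and 4.44. At day 7 the values were 4.87, 3.44 and 4.67 CPM in DMSO and 15.3, 10.3 and 10.6 in FAKi. At day 14 they were 5.10, 6.98 and 7.70 against 14.7, 16.3 and 18.6. At day 21 they were 1.66, 1.19 and 1.90 CPM in DMSO and 5.51, 6.08 and 9.60 in FAKi. On none of the 4 days did the arms overlap, which is what the choice of the gene fixed. The fitted differences were 2.61-fold at day 3 (log2 fold change 1.39 ± 0.30, SE), 2.77-fold at day 7 (1.47 ± 0.23), 2.5-fold at day 14 (1.32 ± 0.18) and 4.59-fold at day 21 (2.20 ± 0.30). The highest arm-to-arm difference came at day 21, when the DMSO mean was lowest. The DMSO libraries of day 3 overlapped those of day 21, however, and the difference there was 2.61-fold. Without the libraries that stood apart the log2 differences were 1.57 at day 3, 1.25 at day 7 and 2.35 at day 21.

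**Figure D2:**
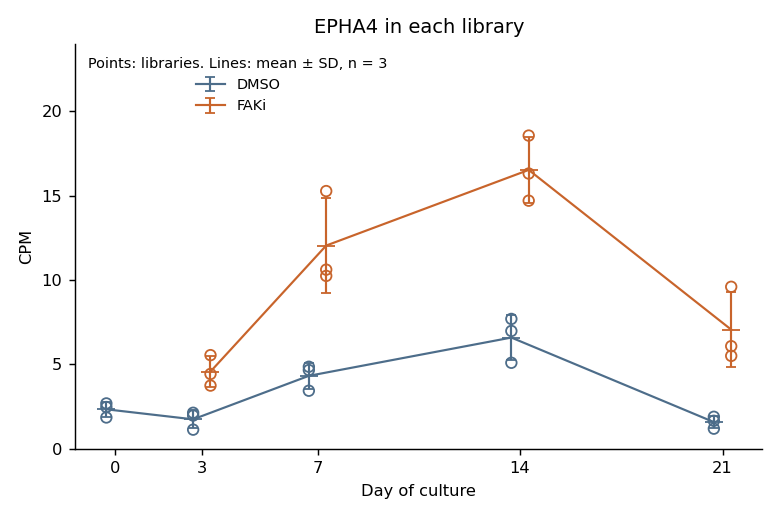
EPHA4 in CPM (y axis) against day of culture (x axis) in DMSO (blue) and FAKi (orange), with each library as a circle and the mean ± SD of 3 libraries joined by lines. Both arms peak at day 14, at means of 6.59 and 16.5 CPM, and return to lower values at day 21.

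EPHA4 also changed in vehicle culture. That contrast did not itself enter the choice of the gene, but the choice used the DMSO libraries of days 3 to 21 and favours low values in them. The adjusted p of EPHA4 given here are therefore not independent of the choice. From 1.86, 2.69 and 2.48 CPM at day 0 it rose 1.87-fold by day 7 (log2 fold change 0.90 ± 0.20, adjusted p = 0.00413) and 2.82-fold by day 14 (1.5 ± 0.24, adjusted p = 0.000347), with no overlap between the libraries of day 0 and those of either day. The day 14 rise passed the fold criterion too. At day 3 (-0.43 ± 0.31, adjusted p = 0.615) and day 21 (-0.55 ± 0.29, adjusted p = 0.146) the test was not passed. Without DMSO day 21 replicate 3 the day 21 value was -0.67 (adjusted p = 0.0378), a fall in the direction that the choice favours, so it is given as a value. Without DMSO day 0 replicate 1 the day 7 value was 0.76 (adjusted p = 0.0551). With all 27 libraries in a single fit the adjusted p at day 7 was 0.427.

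Ordered by mean, the 9 groups ran from DMSO day 21 (1.58 ± 0.359 CPM, SD, n = 3) through DMSO day 3 (1.75 ± 0.538), DMSO day 0 (2.34 ± 0.433), DMSO day 7 (4.33 ± 0.771), FAKi day 3 (4.58 ± 0.912), DMSO day 14 (6.59 ± 1.34), FAKi day 21 (7.07 ± 2.22) and FAKi day 7 (12.1 ± 2.80) to FAKi day 14 (16.5 ± 1.94). Only 2 steps in that order separated neighbours whose libraries did not overlap, the step from DMSO day 0 to DMSO day 7 and the step from FAKi day 21 to FAKi day 7. The overlap of FAKi day 7 with FAKi day 14 rests on FAKi day 7 replicate 1 (15.3 CPM, where the lowest day 14 library held 14.7), and without it the other day 7 libraries, at 10.3 and 10.6 CPM, lay below all of day 14. The libraries of FAKi day 3 overlapped those of DMSO day 7, and those of FAKi day 21 overlapped those of DMSO day 14.

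EPHA2, a receptor for A-type ephrins, was lower with FAKi on all 4 days. At day 3 it read 49.3, 44.6 and 46.4 CPM in DMSO and 34.3, 30.5 and 32.0 in FAKi. At day 7 the libraries held 35.9, 38.7 and 40.0 against 14.5, 32.8 and 21.0 CPM. At day 14 they held 20.5, 16.5 and 19.7 against 13.5, 11.6 and 10.9. At day 21 the values were 32.5, 32.4 and 45.7 CPM in DMSO and 18.2, 23.3 and 21.99 in FAKi. The arms did not overlap on any day, a pattern of lower values on each of the 4 days that 0.411% of the 21147 genes tested throughout showed. On single days the share without overlap in that direction was 15.8, 8.46, 13.8 and 18.9% of tested genes. The log2 fold change was -0.52 ± 0.14 at day 3 (adjusted p = 0.0984) and -0.75 ± 0.25 at day 7 (adjusted p = 0.446), and EPHA2 fell at day 14 (-0.66 ± 0.15, adjusted p = 0.00569) and at day 21 (-0.76 ± 0.19, adjusted p = 0.0403).

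The day 14 call for EPHA2 held without any of the 6 libraries in turn (adjusted p up to 0.0429). The day 21 call was lost without any library but DMSO day 21 replicate 3 (adjusted p 0.0786 to 0.148), and without that library the value was -0.55 (adjusted p = 0.00126). Without DMSO day 3 replicate 1 the day 3 difference passed (-0.47, adjusted p = 0.0221), and without FAKi day 7 replicate 1 the day 7 difference did not (-0.51, adjusted p = 0.105). In DMSO culture EPHA2 fell from 38.6 to 39.5 CPM at day 0 to the day 14 values above (-1.05 ± 0.11, adjusted p = 1.24e-05), passing the fold criterion, and at day 21 it did not differ beyond its error (-0.09 ± 0.16, adjusted p = 0.669; without DMSO day 21 replicate 3 -0.28, adjusted p = 0.00475). Without DMSO day 14 replicate 2 the day 14 fall was -0.95, short of the fold criterion.

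Levels per kilobase set these opposite courses side by side. The ratio of EPHA2 to EPHA4 was 27.7 ± 5.64 (SD, n = 3) in DMSO at day 0, 46.7 ± 16.8 in DMSO and 11.8 ± 2.96 in FAKi at day 3, and 14.7 ± 3.21 and 3.30 ± 1.82 at day 7. At day 14 it was 4.83 ± 1.47 in DMSO and 1.19 ± 0.272 in FAKi, where EPHA4 came nearest to EPHA2, and at day 21 it was 38.2 ± 6.18 and 5.07 ± 1.26. EPHA4 made up 11.4 ± 1.28% of the summed level per kilobase of the 14 Eph receptor genes in FAKi at day 14 and 4.80 ± 1.02% in DMSO, and EPHA2 13.4 ± 1.75% and 22.3 ± 3.16%. That sum includes EPHA1, counted on a transcript of only 648 bases, at 1.12 CPM per kilobase in FAKi and 1.29 in DMSO at day 14. Since EPHA4 was chosen for its direction, these ratios are a description.

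EPHA5, another A-type receptor, rose and then fell in DMSO culture. From 7.12, 6.93 and 7.48 CPM at day 0 it rose to 10.8, 9.93 and 11.2 at day 7 (0.56 ± 0.12, adjusted p = 0.00400) and to 9.03, 12.1 and 13.8 at day 14 (0.69 ± 0.18, adjusted p = 0.00824). At day 21 it fell to 1.49, 1.65 and 4.17 CPM (-1.57 ± 0.38, adjusted p = 0.0116), the lowest of its groups and past the fold criterion. With all 27 libraries in a single fit the day 14 rise was not called (adjusted p = 0.144), nor was the day 7 rise. At day 21 the high library is DMSO day 21 replicate 3, and without it the fall was -2.22 (adjusted p = 3.93e-13). At day 3 EPHA5 did not pass in DMSO (-0.42 ± 0.35, adjusted p = 0.649), but without DMSO day 3 replicate 1 it was -0.85 (adjusted p = 0.0442).

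Under FAKi, EPHA5 read 8.94, 13.3 and 12.1 CPM at day 3 beside 8.12, 5.48 and 2.60 in DMSO (1.08 ± 0.36, adjusted p = 0.128). Replicate 1 was the highest of the DMSO libraries, and without DMSO day 3 replicate 1 the difference was 1.52 (adjusted p = 0.00162). DESeq2 and the fit of all 27 libraries also called it, at an adjusted p of 0.0312 and 0.0370. At day 7 (0.31 ± 0.15, adjusted p = 0.606) and day 14 (0.03 ± 0.18, adjusted p = 0.953) EPHA5 did not pass. At day 21 it read 2.45, 3.76 and 5.73 CPM in FAKi, overlapping DMSO (0.77 ± 0.47, adjusted p = 0.279), and without DMSO day 21 replicate 3 the difference was 1.44 (adjusted p = 0.000994). Its FAKi effect was then also higher at day 21 than at day 14 (1.37, adjusted p = 0.00839), where with all libraries it did not pass (0.73 ± 0.49, adjusted p = 0.360). GENCODE 44 places an antisense gene, EPHA5-AS1, over 6.34% of the counted bases, and whether counting used strand is not given in the sources used here.

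**Figure D3:**
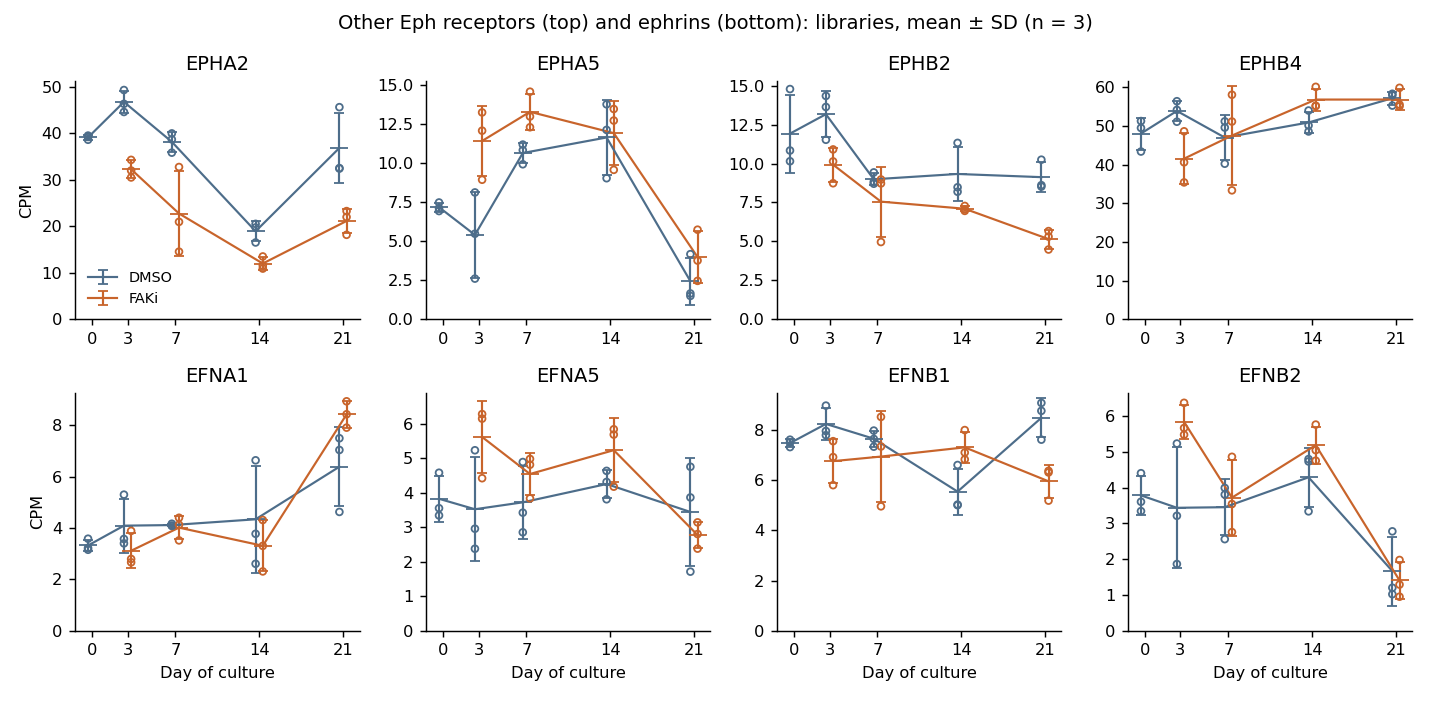
CPM (y axis, each panel on its own scale from 0) against day of culture for 4 Eph receptors (top) and 4 ephrins (bottom) in DMSO (blue) and FAKi (orange), with circles for libraries and lines for the mean ± SD of 3. EPHA2 in FAKi lies below DMSO on each day, while EPHB4 stays between 33.3 and 60.1 CPM in every library.

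EPHB2, a receptor for B-type ephrins, had a lower mean in FAKi than in DMSO on all 4 days. At day 21 it read 10.3, 8.52 and 8.61 CPM in DMSO and 4.48, 5.66 and 5.30 in FAKi, and it fell (-0.78 ± 0.18, adjusted p = 0.0315). That call was lost without any library but DMSO day 21 replicate 3 (adjusted p 0.0908 to 0.131), and without that library it held (-0.81, adjusted p = 0.00102). The arms were also apart at day 3 (11.5 to 14.4 CPM in DMSO, 8.74 to 10.9 in FAKi, -0.40 ± 0.18, adjusted p = 0.212) and at day 14 (8.19 to 11.3 against 6.96 to 7.28, -0.40 ± 0.19, adjusted p = 0.196), neither of which passed. At day 7 they overlapped (-0.25 ± 0.23, adjusted p = 0.793). In DMSO, EPHB2 fell by day 7 (-0.43 ± 0.13, adjusted p = 0.0470), a call that DESeq2 (adjusted p = 0.0904) and 5 of 6 fits without a library did not make (adjusted p 0.0578 to 0.439). Among single omissions, the call held only when the first day 0 library was the one left out. At day 14 (-0.36 ± 0.18, adjusted p = 0.162) and day 21 (-0.39 ± 0.19, adjusted p = 0.118) EPHB2 did not pass in DMSO, but it did without DMSO day 14 replicate 1 (-0.52, adjusted p = 0.0369) and without DMSO day 21 replicate 3 (-0.35, adjusted p = 0.0272).

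EPHB4, a receptor known for its part in blood vessel development, passed no comparison of the arms. Its libraries read 43.4 to 51.3 CPM at day 0, 51.1 to 56.4 in DMSO against 35.4 to 48.6 in FAKi at day 3, 48.6 to 54.0 against 55.2 to 60.1 at day 14, and 55.3 to 58.3 in DMSO against 55.1 to 59.9 in FAKi at day 21. The arms were thus apart at day 3, with FAKi lower, and at day 14, with FAKi higher. The FAKi log2 fold change was -0.36 ± 0.16 at day 3 (adjusted p = 0.198), 0.01 ± 0.21 at day 7 (adjusted p = 0.988), 0.15 ± 0.10 at day 14 (adjusted p = 0.401) and 0.04 ± 0.11 at day 21 (adjusted p = 0.823). In DMSO culture no day passed (log2 fold change -0.04 to 0.25), except day 21 without DMSO day 21 replicate 3 (0.27, adjusted p = 0.00436).

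**Figure D4:**
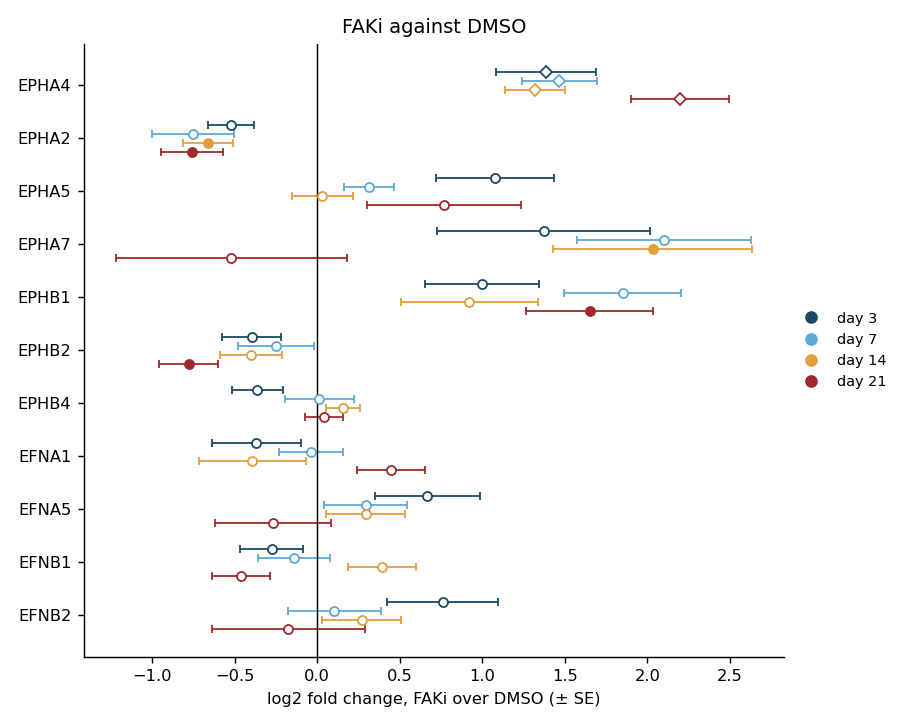
Fitted log2 fold change of FAKi over DMSO with its SE (x axis) for the tested members and for EPHA7 and EPHB1, by day (colour). Filled circles mark an adjusted p of at most 0.05, open circles the rest, and diamonds EPHA4, which was not tested. EPHA4, EPHB1 and EPHA5 lie above 0 on all 4 days, EPHA5 at day 14 by less than its SE, and EPHA2 and EPHB2 lie below it.

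Of the 12 family genes outside the list, EPHB1, a B-type receptor, was the one with libraries higher in FAKi than in DMSO on all 4 days. It was scarce, with 6 to 76 counts a library, and read 0.579, 0.475 and 0.512 CPM in DMSO and 1.01, 1.11 and 1.02 in FAKi at day 3. The values were 0.439, 0.299 and 0.544 against 1.79, 1.56 and 1.42 CPM at day 7, and 1.35, 1.52 and 0.783 against 1.99, 2.02 and 2.98 at day 14. At day 21 they were 0.315, 0.398 and 0.370 in DMSO and 1.29, 0.952 and 1.03 in FAKi, where EPHB1 rose 3.14-fold (1.65 ± 0.38, adjusted p = 0.0330). The arms were apart on each day, which 0.463% of genes showed in that direction. The log2 fold change was 1.00 ± 0.35 at day 3 (adjusted p = 0.136), 1.85 ± 0.36 at day 7 (adjusted p = 0.166) and 0.92 ± 0.41 at day 14 (adjusted p = 0.166). The day 21 call was lost without any library but DMSO day 21 replicate 3 (adjusted p 0.0953 to 0.125), and the day 7 difference passed without FAKi day 7 replicate 1 (1.75, adjusted p = 0.0208). Another gene overlaps 7.4% of the counted EPHB1 bases on the same strand.

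EPHA7, an A-type receptor, rose 4.09-fold at day 14 (2.03 ± 0.60, adjusted p = 0.0291), on 18, 8 and 10 counts in DMSO and 56, 42 and 41 in FAKi. That call was lost without DMSO day 14 replicate 2 or any FAKi day 14 library (adjusted p 0.0774 to 0.139), and DESeq2 called none of these 12 genes on that day. At day 21 EPHA7 went the other way (-0.52 ± 0.70, adjusted p = 0.631). EPHB1 at day 21 and EPHA7 at day 14 were the calls among the 12 under FAKi with all libraries in. They were 1 of 8 tested at day 14 beside 12.4% of all genes and 1 of 9 at day 21 beside 11.6%. It was 0 of 10 tested at day 3 and 0 of 9 at day 7. At an unadjusted p under 0.05 there were 6 and 3 on those days, beside 5442 of 22846 and 1955 of 22299 genes. Without DMSO day 3 replicate 1, EPHA7 also passed at day 3 (2.24, adjusted p = 0.0197, against 1.37, adjusted p = 0.227, with it). DESeq2 called EFNA4 and EPHA1 at day 3 (1838 of 22846 genes in all), none at day 7, and EPHA1, EPHA8 and EPHB1 at day 21 (4782 of 23212 genes). The fit of all 27 libraries called EFNA2, EFNA4 and EPHA1 at day 3 (2575 of 28164 genes) and EPHB1 at day 7 (152 of 28164).

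EFNA1, an A-type ephrin and a ligand of EphA2, rose late in culture. It read 3.16, 3.59 and 3.23 CPM at day 0 and 7.50, 7.04 and 4.63 in DMSO at day 21 (0.94 ± 0.23, adjusted p = 0.0131), a rise not called without replicate 1 or 3 of DMSO day 0 or replicate 1 of DMSO day 21 (adjusted p 0.0526 to 0.0589). Without DMSO day 21 replicate 3 it was 1.13 (adjusted p = 4.02e-07), past the fold criterion. FAKi libraries at day 21 held 8.43, 8.94 and 7.91 CPM, above all 3 of DMSO (0.45 ± 0.21, adjusted p = 0.171). On the earlier days EFNA1 overlapped between arms, with log2 fold changes of -0.37, -0.04 and -0.39.

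EFNA5, the other listed A-type ephrin and a ligand of EphA4 among others, passed no comparison. At day 3 it read 5.23, 2.96 and 2.38 CPM in DMSO and 4.42, 6.15 and 6.28 in FAKi (0.67 ± 0.32, adjusted p = 0.232). Without DMSO day 3 replicate 1 the difference was 1.09 (adjusted p = 0.00534). At day 21 the sign was the opposite (-0.27 ± 0.35, adjusted p = 0.624), with 4.75, 3.86 and 1.71 CPM in DMSO and 3.14, 2.80 and 2.38 in FAKi. Without DMSO day 21 replicate 3, the lowest of these, EFNA5 passed there (-0.59, adjusted p = 0.0454).

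EFNB1, a transmembrane ephrin encoded on the X chromosome, differed in direction between days 14 and 21. At day 14 it read 5.004, 6.60 and 5.03 CPM in DMSO and 6.83, 7.10 and 7.99 in FAKi, all 3 above DMSO (0.39 ± 0.21, adjusted p = 0.258). At day 21 it read 8.76, 7.61 and 9.08 in DMSO and 6.37, 5.18 and 6.31 in FAKi, all 3 below (-0.46 ± 0.18, adjusted p = 0.113). The fibroblast markers were likewise higher with FAKi at day 14 and lower at day 21, as given above. Neither EFNB1 difference passed alone in these fits, although the fit of all 27 libraries called it at day 21 (-0.51, adjusted p = 0.0491), with 5413 of 28164 genes in all. The change in the FAKi effect between days 14 and 21 did pass for EFNB1 (-0.88 ± 0.26, adjusted p = 0.0383), where 12.7% of tested genes passed. It was 1 of 8 tested members. In the fit of day 21 against day 3 there were 0 of 8 by edgeR and by DESeq2, beside 2.93% of genes (0.91% higher, 2.02% lower) by edgeR. At an unadjusted p under 0.05 there was 1 of 8 in that fit, beside 4849 of 25389 genes. EFNB1 was no longer called with upper quartile scaling (adjusted p = 0.0568), with no minimum count (adjusted p = 0.0830) or in 10 of 12 fits without a library (adjusted p 0.0529 to 0.101), namely all but those without replicate 2 of DMSO day 14 or replicate 3 of DMSO day 21. In DMSO culture EFNB1 did not pass at day 14 (-0.43 ± 0.18, adjusted p = 0.0920) but did without DMSO day 14 replicate 2 (-0.57, adjusted p = 0.0323). For EPHA4 the FAKi effect was 0.80 ± 0.43 log2 units higher at day 21 than at day 3, and 0.85 ± 0.34 higher than at day 14, given as values.

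EFNB2, the B-type ephrin known as a ligand of EphB4, fell in DMSO culture by day 21, from 3.34, 4.40 and 3.60 CPM at day 0 to 1.202, 1.02 and 2.78 (-1.18 ± 0.38, adjusted p = 0.0349), past the fold criterion. The call was lost without any of the 6 libraries but DMSO day 21 replicate 3 (adjusted p 0.0806 to 0.114), and without that one the fall was -1.74 (adjusted p = 2.26e-07). FAKi cells at day 21 were as low, at 1.29, 0.952 and 1.98 CPM (-0.17 ± 0.46, adjusted p = 0.816; 0.43, adjusted p = 0.374, without DMSO day 21 replicate 3). At day 3 FAKi libraries read 5.48, 6.37 and 5.66 CPM, above 5.23, 3.21 and 1.87 in DMSO (0.76 ± 0.34, adjusted p = 0.208), and without DMSO day 3 replicate 1 the difference was 1.22 (adjusted p = 0.00352). A gene on the opposite strand overlaps 36.28% of the counted EFNB2 bases, so reads of the pair may not be told apart.

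Across the time course of DMSO alone, different members passed on different days. At day 3 it was 0 of 9 by edgeR, by DESeq2 and at an unadjusted p under 0.05. Of all tested genes 0% passed by edgeR, and 2242 of 22728 had an unadjusted p under 0.05. Without DMSO day 3 replicate 1, 4010 genes passed there, EPHA5 among them. At day 7 EPHA4, EPHA5 and EPHB2 passed, 3 of 9 beside 4.94%. With all 27 libraries in a single fit none of the members passed that day, where that fit called 69 of 28164 genes. At day 14 EPHA4, EPHA2 and EPHA5 passed, 3 of 9 beside 28.3%, and at day 21 EPHA5, EFNA1 and EFNB2 passed, 3 of 9 beside 44.9%. The choice of EPHA4 used these DMSO libraries, and without that gene 2 of 8 passed at each of days 7 and 14. With the fold criterion added, 2 of 9 passed at each of days 14 and 21, beside 6.07% and 23.3% of genes. Leaving EPHA4 out, it was 1 of 8 at day 14 and 2 of 8 at day 21. The libraries were apart from those of day 0 for 2, 4, 4 and 5 of the 9 genes on the 4 days, beside 16.8, 21.2, 43.2 and 58.1% of all genes. Of the 8 genes other than EPHA4, 2, 2, 1 and 3 were apart and higher, and 0, 1, 2 and 2 apart and lower. The mitochondrial share was highest in DMSO at day 14, when EPHA4 and EPHA5 were up, and lowest at day 21, when EPHA5 and EFNB2 were down, and its part was not tested. By the adjusted p, the members' share was near the background at day 14 and below it at day 21. Among the other 12 genes, EPHA1 rose 3.26-fold by day 21 (1.70 ± 0.28, adjusted p = 0.00330) and EFNA4 2.07-fold (1.05 ± 0.18, adjusted p = 0.00386). On the earlier days 0 of 9 of these genes passed, none by DESeq2, and the fit of all 27 libraries called EPHB1 at day 14 (4467 of 28164 genes in all). At an unadjusted p under 0.05 there were 3, 0 and 2 on days 3, 7 and 14. Over all genes there were 2242 of 22728, 3700 of 21900 and 8697 of 22669. EPHA1 was counted on a short transcript of 648 bases, 12.6% of it overlapped by ZYX on the opposite strand, and 15.07% of the EFNA4 bases are shared with the EFNA4-EFNA3 read-through.

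**Figure D5:**
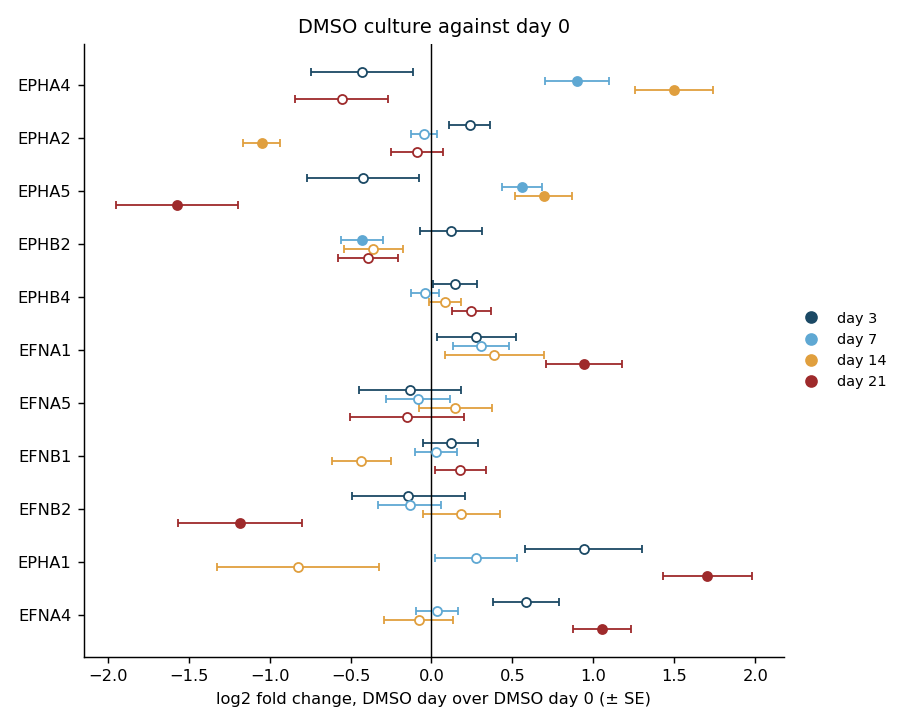
Fitted log2 fold change of DMSO culture over DMSO day 0 with its SE (x axis) for the tested members and for EPHA1 and EFNA4, by day (colour), with filled circles for an adjusted p of at most 0.05. EPHA4 and EPHA5 rise at days 7 and 14, EPHA2 falls at day 14, and EPHA5 and EFNB2 fall at day 21.

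The signalling genes downstream of the family were read from a list of 51, made up of 6 kinases, 15 adaptors, 20 genes of GTPase control and 10 of reverse signalling and ligand cleavage. Under FAKi 0 of 47 tested passed at day 3 and 0 of 46 at day 7. At an unadjusted p under 0.05 there were 10 and 6, beside 5442 of 22846 and 1955 of 22299 genes. DESeq2 called ADAM10 at day 3 and SIPA1L1 at day 7, where it called 1838 of 22846 and 210 of 22299 genes in all, and the fit of all 27 libraries, with 2575 and 152 of 28164 genes, called ABL2, ADAM10, ADAM12, ITSN2 and PIK3R1, and SIPA1L1. At day 14, 4 of 47 rose and 5 fell, where 6.35 and 6.1% of all genes did. GRB10, an adaptor that binds receptor tyrosine kinases, fell (-0.85 ± 0.12, adjusted p = 4.1e-05), as did PTPN13, a phosphatase (-0.77 ± 0.11, adjusted p = 9.28e-05), and the Src family kinase FYN (-0.57 ± 0.12, adjusted p = 0.00205). ABL1, a tyrosine kinase, rose (0.49 ± 0.10, adjusted p = 0.00191). With all 27 libraries in a single fit GRB10 and FYN alone of the list were called at day 14. At day 21, 0 of 48 rose and 3 fell, where 5.27 and 6.32% of all genes did. These were RAC1, a GTPase of the leading edge (-0.99 ± 0.19, adjusted p = 0.0208), CFL1, which severs actin filaments (-0.90 ± 0.16, adjusted p = 0.0156), and RGS3, which couples ephrin-B to G proteins (-0.69 ± 0.15, adjusted p = 0.0269). All 3 were lost without any library but DMSO day 21 replicate 3 (adjusted p 0.0587 to 0.128), and without it RAC1 stood at -1.14, CFL1 at -1.01 and RGS3 at -0.82.

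In DMSO culture the signalling list moved mostly downwards. At day 3, 0 of 47 passed by edgeR, by DESeq2 or with all 27 libraries. At an unadjusted p under 0.05 there was 1, beside 2242 of 22728 genes. At day 7, 2 rose and 3 fell, where 2.47 and 2.46% of all genes did, led by the exchange factor KALRN (-1.18 ± 0.26, adjusted p = 0.00386) and SIPA1L1, a GTPase activator bound by EphA4 (0.74 ± 0.12, adjusted p = 9.17e-05), with PIK3R1 (-0.35) and RGS3 (-0.29) after them. PIK3R1 was lost without replicate 2 of DMSO day 0 or replicate 3 of DMSO day 7 (adjusted p 0.0581 to 0.0617), and RGS3 without replicate 1 or 2 of DMSO day 0, or 1 or 3 of DMSO day 7 (adjusted p 0.116 to 0.199). With all 27 libraries in a single fit none of these passed. At day 14, 2 of 47 rose and 18 fell, beside 14.3 and 14% of genes, the furthest being the ubiquitin ligase CBLB (-0.90 ± 0.26), the adaptor SHC1 (-0.77 ± 0.10), LIMK1 (-0.72 ± 0.12), which phosphorylates cofilin, and the Src family kinase LYN (-0.66 ± 0.11). CBLB was lost without DMSO day 0 replicate 1 or 3 (adjusted p 0.087 and 0.0565). At day 21, 4 rose and 23 fell, beside 24.1 and 20.7% of genes. The furthest there were GRIP1, a PDZ scaffold of ephrin-B (-1.46 ± 0.25), PTPN13 (-1.41 ± 0.30), the kinase ROCK1 (-1.38 ± 0.30) and the scaffold ITSN2 (-1.36 ± 0.24). The median of the list was -0.32 at day 14 and -0.48 at day 21, beside 0.02 and 0.03 over all genes. Between days 14 and 21 the FAKi effect changed for 10 of 48, with 5 higher and 5 lower at day 21, beside 5.5 and 7.24% of genes. Between days 3 and 21 it did so for 0 of 48. At an unadjusted p under 0.05 there were 7, beside 4849 of 25389 genes. DESeq2 called CFL1, SDCBP and YES1 there (1881 of 25389 genes in all) and the fit of all 27 libraries CFL1 and YES1 (1384 of 28164).

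PTK2, which encodes FAK itself, passed no test between the arms. It read 153 to 164 CPM at day 0, and under FAKi its log2 fold change was between -0.06 and 0.13 on the 4 days, with adjusted p from 0.59 to 0.927, but without DMSO day 21 replicate 3 it was 0.31 at day 21 (adjusted p = 0.0174). In DMSO culture it fell by 0.29 on the log2 scale at day 14 (adjusted p = 0.0204) and by 0.47 at day 21 (adjusted p = 0.0322). The day 14 call was lost without any day 0 library or without replicate 3 of day 14 (adjusted p 0.0521 to 0.0889), and the day 21 call without any library but DMSO day 21 replicate 3 (adjusted p 0.08 to 0.118).

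The genes whose pattern was most like that of EPHA4 were sought by Pearson correlation of log2 CPM over the 27 libraries among 16981 other genes with a mean of at least 1 CPM. They were HSPA12A, an atypical heat shock protein (r = 0.966), PLXNC1, a semaphorin receptor (0.956), IGSF11, an adhesion molecule of the immunoglobulin superfamily (0.954), PRUNE2 (0.950) and RAI14, an actin-binding protein (0.941). Over the 15 DMSO libraries alone the values were 0.948, 0.956, 0.900, 0.930 and 0.883. The points share groups of 3 libraries and a common course in culture, so these are descriptions and carry no p. PLXNC1, for example, read 43.2 CPM at day 0, 195 in DMSO and 267 in FAKi at day 14, and 35.7 and 150 at day 21, as means of 3 libraries. Within the family EPHB1 ranked 73 of these genes (r = 0.865) and EPHA5 1149 (0.654), while EPHA2 stood near the other end (r = -0.842, rank 16881). These r over 27 libraries include the differences between arms on which EPHA4 was chosen. In the 15 DMSO libraries alone the order changed, with EPHA5 at 0.842 and EPHB1 at 0.614. EPHA2 stood at -0.697 there, with EPHA1 (-0.792) and EFNA4 (-0.788) below it.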

How the data were processed

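The deposited table holds raw counts per gene for 27 libraries of 92.1 cells. The authors prepared TruSeq Stranded mRNA libraries, trimmed reads with Trim Galore (FastQC 0.11.8), aligned them to hg38 with STAR 2.5.3a and counted exons of GENCODE 39 with HOMER, keeping 1 transcript a gene. The strand setting is not given in the sources used here. Libraries were grouped by treatment and day from their titles, although the column name of DMSO day 21 replicate 3 gives the day with an extra digit. The study's methods speak of biological replicates, but the labels do not say what each replicate number stands for, so p-values measure the spread between these libraries, which may be partly technical. Genes with at least 20 counts over the libraries of a comparison were tested on the counts as deposited with edgeR 4.0.16 (TMM scaling, quasi-likelihood test, Benjamini-Hochberg adjustment) in R 4.3.3, on the groups compared. A fold criterion of 1 on the log2 scale was used beside an adjusted p of 0.05. The scripts were tested on simulated data. Printed CPM are TMM-scaled over all 27 libraries. Intervals given to counts of 0 cover counting error only. DESeq2 1.42.0, other scalings, filters, thinning and leaving out each library were alternatives. Named genes are the 10 members, other family genes that passed, the 4 signalling genes furthest from 0 among those past the adjusted p in a comparison, PTK2 and the 5 genes most like EPHA4. The members, gene lists and tests were chosen with earlier results of these data known.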

Additional observations from a re-analysis of the deposited data

Results flagged for a closer look

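The FAKi effect differed between day 14 and day 21 for 1 of 8 tested members and 10 of 48 signalling genes, beside 12.7% of all genes. The test was edgeR's test of the difference with Benjamini-Hochberg adjustment (log2 units, day 21 minus day 14). DESeq2 and the fit of all 27 libraries also called EPHA7. Given here are EFNB1 and the 4 signalling genes furthest from 0 among those that passed. The change was -0.88 for EFNB1 (adjusted p = 0.0383). It was -2.96 for VAV3, an exchange factor (adjusted p = 0.0443; mean 0.649 CPM in DMSO and 1.67 in FAKi at day 14, 0.647 and 0.19 at day 21; -4.45 to -2.60 when a library was left out), 1.53 for PTPN13 (adjusted p = 0.00841), -1.36 for CFL1 (adjusted p = 0.000527) and 1.18 for RASA1, a Ras GTPase activator (adjusted p = 0.0144). VAV3 was lost with upper quartile scaling (adjusted p = 0.0501) and in 9 of 12 fits without a library (all but FAKi day 14 replicate 2, FAKi day 21 replicate 3 and DMSO day 21 replicate 3; adjusted p 0.0504 to 0.109), and RASA1 without FAKi day 21 replicate 3 (adjusted p = 0.0511).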

How the results depend on the processing

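The number of members past both thresholds was 0 under FAKi at day 3 and became 1 with no minimum count, by DESeq2 and when the 27 libraries were fitted jointly. With the adjusted p alone it was 1 at day 14, 2 at day 21, 3 for DMSO day 7 against day 0 and 1 for the change in FAKi effect from day 14 to day 21. By both thresholds again, counts thinned to the smallest library gave 1 for DMSO day 7, where the count was 0. Leaving out each library gave, also by both thresholds, 0 to 3 at day 3 (3 without DMSO day 3 replicate 1), 0 to 1 at day 21 (1 without DMSO day 21 replicate 3), 0 to 1 for DMSO day 7 (1 without DMSO day 7 replicate 2), 1 to 2 for DMSO day 14, 1 to 3 for DMSO day 21, and 0 to 1 for the change from day 14 to day 21. By Spearman's rank correlation, 3 of the 5 genes most like EPHA4 stayed in the first 5. Over all genes, those past both thresholds at day 3 numbered 0, and 1181 with no minimum count, 802 in the single fit, 755 by DESeq2 and 2765 without DMSO day 3 replicate 1. For DMSO day 3 they numbered 0, and 1439 without DMSO day 3 replicate 1. Under FAKi at day 7 they numbered 6, and 220, 69, 102 and 248 (without FAKi day 7 replicate 1). At day 14 they numbered 388, and 632 in the single fit. At day 21 they numbered 1226, with 1913, 1954 and 1828 under those alternatives, 4248 without DMSO day 21 replicate 3 and 52 at the lowest.

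Some signs turned. EPHB4 under FAKi at day 7 was -0.0009 with no minimum count and -0.017 with the replicate block, and -0.0091 at day 21 in the single fit, and EFNB1 in DMSO at day 7 was -0.024 when thinned. Under FAKi at day 7 leaving out a library gave EPHB4 -0.16 to 0.22, EFNA1 -0.11 to 0.045, EFNB1 -0.31 to 0.053, EFNB2 -0.15 to 0.29, PTK2 -0.12 to 0.0518. Under FAKi at day 14 leaving out a library gave EPHA5 -0.12 to 0.17, EFNA1 -0.66 to 0.0501. Under FAKi at day 21 leaving out a library gave EFNA5 -0.59 to 0.035, EFNB2 -0.51 to 0.43, EPHA7 -0.94 to 0.38. In DMSO at day 3 leaving out a library gave EFNA5 -0.55 to 0.085, EFNB2 -0.58 to 0.15. In DMSO at day 7 leaving out a library gave EPHB4 -0.11 to 0.061, EFNA5 -0.30 to 0.071, EFNB1 -0.0042 to 0.049, EFNB2 -0.24 to 0.045. In DMSO at day 14 leaving out a library gave EFNA1 -0.051 to 0.65. In DMSO at day 21 leaving out a library gave EPHA2 -0.28 to 0.0091, EFNA5 -0.46 to 0.17. For the FAKi effect of day 21 over day 3 leaving out a library gave EPHA5 -0.73 to 0.38. For the FAKi effect of day 21 over day 14 leaving out a library gave EPHA2 -0.20 to 0.069, EFNB2 -0.79 to 0.12.

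Each library's deviations from its group mean in log2 CPM were correlated across genes between same-numbered libraries of the arms. The r of these deviations was -0.105 to 0.538, not above 0.1 in every pair. At day 21 the values were 0.311, 0.0906 and 0.538 in order of replicate number, and on the earlier days they reached 0.0733 at most. These r values carry no test, and the labels do not say what a shared number stands for. As a block the replicate number changed 1 call of a member, EPHA5 at day 21 (0.80, adjusted p = 0.0334), and took all-gene calls there to 2076 and at day 7 to 0. At day 21, the deviations of 3 of 6 libraries correlated best with those of the same number in the other arm. The causes of these changes were not tested. EPHA3, EPHB1 and EPHA7 rest on few counts, which limits what could be detected.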
